A study of Daphnia magna with 45 samples.

Results

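A set of 150 transcript IDs of the water flea Daphnia magna was lower at 6 h in animals exposed to isoprenaline, to a mixture of isoprenaline and propranolol, or to propranolol at 4 mg/L than in unexposed animals and in animals at the lower propranolol dose of 1 mg/L. The set was drawn from 19159 IDs. Levels are log2(CPM + 1), where CPM scales the reads of an ID to a library of 1000000 reads. An ID qualified when its highest level in the 8 libraries of the 3 exposures at 6 h lay below its lowest level in the 6 control and propranolol 1 mg/L libraries at 6 h. This held for 654 IDs, against 95 IDs with the opposite order, and the 150 with the largest difference between the mean levels of the 8 and the 6 libraries were kept. The IDs were thus chosen by their measured levels in the 14 libraries at 6 h, and those levels are given as a description with no test. The last ID kept differed by -1.43 on the log2 scale and the first one left out by -1.42.

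RNA came from whole bodies of females of the strain Xinb3, aged 5 days at exposure, with 20 animals in 35 mL of solution. The exposures were isoprenaline at 100 mg/L (labelled Iso) and the mixture of propranolol at 1 mg/L with isoprenaline at 100 mg/L (IP), both at 1 and 6 h. Propranolol at 4 mg/L (Prop3) was sampled at 1, 6 and 24 h, and propranolol at 1 mg/L (Prop) and the control (Cont) at 1, 3, 6 and 24 h. Each group had 3 libraries, except 2 for propranolol 4 mg/L at 6 h and 1 for a control at 0 h. The labels name no deletion or transgene for any group, and animals were exposed together in a solution. Whether replicates are separate cultures is not stated in the labels. The p-values then reflect the spread among the libraries at hand, part of which may be technical.

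Beta-adrenergic receptors are G protein-coupled receptors that raise cyclic AMP when an agonist binds. Isoprenaline is a synthetic agonist of these receptors in vertebrates, and propranolol is an antagonist that does not discriminate between the beta receptor subtypes. In arthropods the related amines octopamine and tyramine take over many roles that adrenaline and noradrenaline have in vertebrates. The deposited table pairs its IDs with no gene names, and 0 of the 19159 IDs matched the 28335 genes of the reference table, so the functions of the 150 IDs are not given here and no sequence can be shown for them.

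Libraries held 13497184 to 43707490 reads, and 3 reads corresponded to 0.0686 to 0.222 CPM. Replicate 2 of propranolol 1 mg/L at 24 h stood apart from its group. In that library 97 of the 150 IDs were at or below the highest value that the ID had in the exposed 6 h libraries, against 0 and 1 IDs in replicates 1 and 3. Its depth of 19190463 reads lay between the 18252056 and 20993933 reads of replicates 1 and 3. Results at 24 h that use this group are given with and without that library, and the part it plays beyond these values was not tested.

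At 6 h the median level of the 150 IDs was 3.27 to 4.37 CPM in the isoprenaline libraries, 3.34 to 5.96 CPM in the mixture libraries, and 1.52 and 6.15 CPM in the propranolol 4 mg/L libraries. It was 12.4 to 24.4 CPM in the propranolol 1 mg/L libraries and 12.6 to 28.2 CPM in the control libraries. The differences between group means and control had medians of -1.94 for isoprenaline, -1.90 for the mixture and -2.19 for propranolol 4 mg/L on the log2 scale, and propranolol 1 mg/L had a median of -0.16. These comparisons share the control libraries. Over the 150 IDs the difference that ranked them ran from -7.14 to -1.43 with a median of -1.89. It was below -3 for 17 IDs and below -4 for 8 IDs. In whole-body RNA, fewer cells of a type and less RNA per cell cannot be told apart.

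Most of the 150 IDs were moderately abundant, with a median of 10.7 CPM over all libraries against 13.5 CPM for all 19159 IDs. A mean of at least 5 CPM was reached by 124 of them and a mean of at least 100 CPM by 10. Together they took 0.131% to 0.702% of the reads of the exposed 6 h libraries, and 1.5% to 4.08% of the reads of the control and propranolol 1 mg/L libraries at 6 h. One ID supplied much of this sum: without it the shares were 0.0939% to 0.376% and 0.753% to 1.92%. All 150 IDs were in the deposited table and were tested in the main fit, and up to 7 of them were at 0 in a library. In the alternative fit that required a mean of at least 5 CPM, 124 of them were tested.

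**Figure D1:**
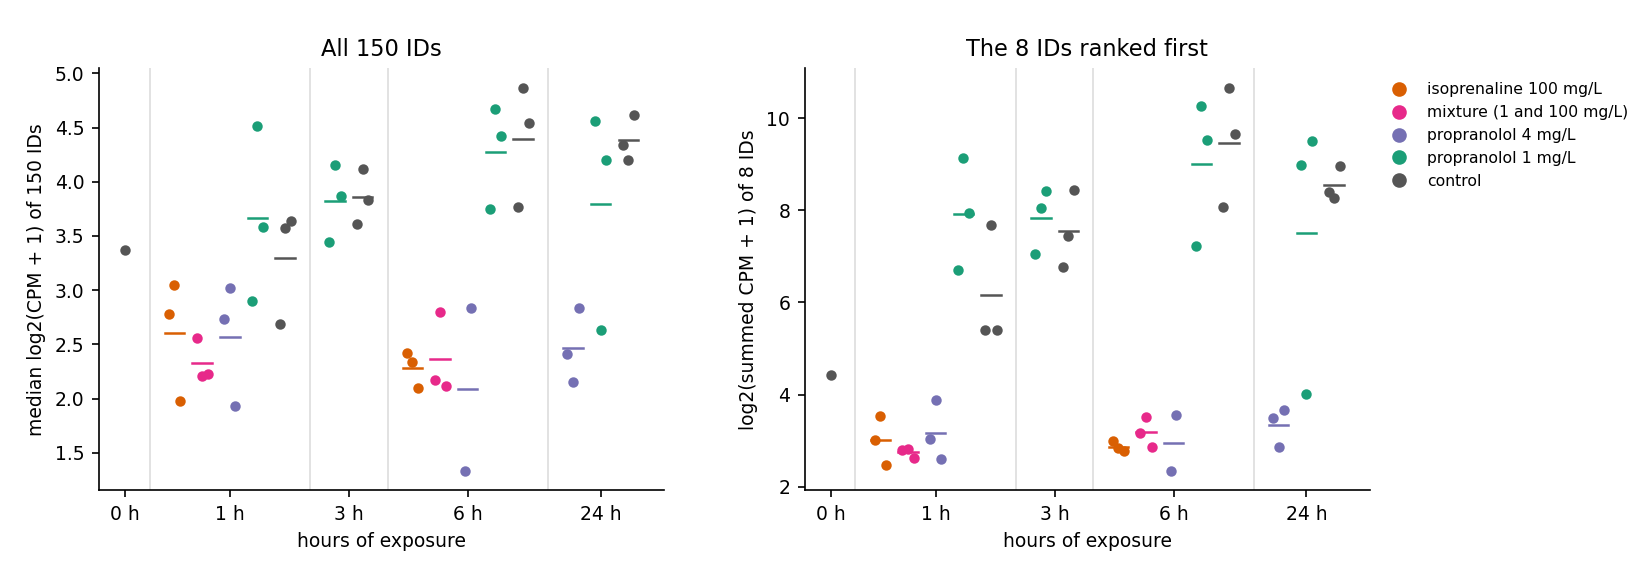
Levels in all 45 libraries by hour and exposure: on the left the median log2(CPM + 1) of the 150 IDs, on the right log2(summed CPM + 1) of the 8 IDs ranked first. Each point is a library and each bar the mean of a group; within an hour the order is isoprenaline, mixture, propranolol 4 mg/L, propranolol 1 mg/L, control. The 6 h libraries chose the IDs; at 1 and 24 h the sum of the 8 IDs in isoprenaline, mixture and propranolol 4 mg/L libraries lies below that of every control and propranolol 1 mg/L library of the same hour.

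The 31 libraries of the other hours took no part in choosing the IDs. Each was placed against the 6 h ranges, by counting the IDs at or below the highest exposed 6 h value and the IDs at or above the lowest control or propranolol 1 mg/L value. At 1 h, 77 to 148 IDs lay in the exposed range in the isoprenaline libraries, 106 to 141 in the mixture libraries and 73 to 149 in the propranolol 4 mg/L libraries. The counts were 0 to 61 in the propranolol 1 mg/L libraries and 12 to 76 in the control libraries. One control library, replicate 1 with 76 IDs, thus lay within the span of the exposed libraries at 1 h. At 24 h the propranolol 4 mg/L libraries had 75 to 139 IDs in the exposed range, against 1 in each control library.

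**Figure D2:**
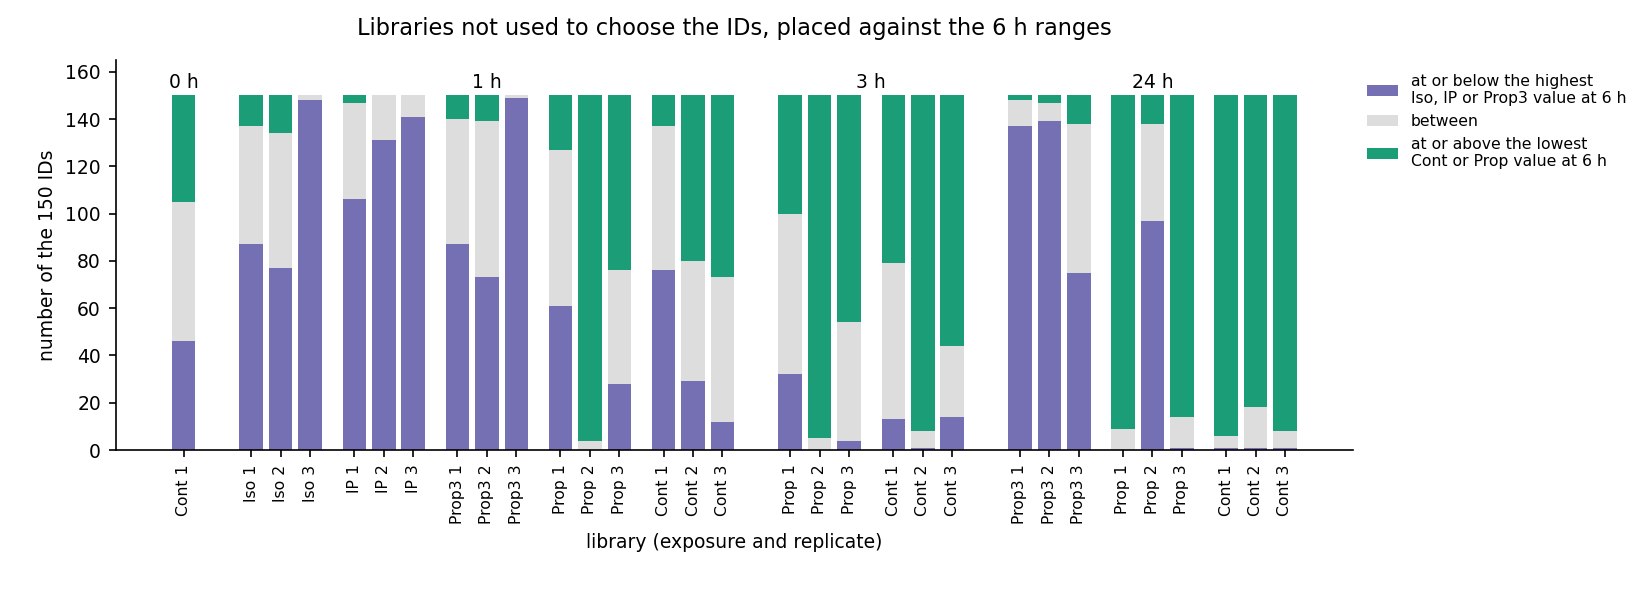
Number of the 150 IDs in each of the 31 libraries not used to choose them, split by where the ID lay against its 6 h ranges: at or below the highest isoprenaline, mixture or propranolol 4 mg/L value, between, or at or above the lowest control or propranolol 1 mg/L value. The 3 propranolol 4 mg/L libraries at 24 h have 137, 139 and 75 IDs in the lower range, the 3 control libraries 1 each, and replicate 2 of propranolol 1 mg/L has 97.

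The first question put to those libraries was whether the IDs were already lower at 1 h. The mean of isoprenaline, the mixture and propranolol 4 mg/L was set against the mean of the control and propranolol 1 mg/L at 1 h. All 150 IDs had a lower estimate in the 3 exposures, with a median log2 difference of -0.85, against 9157 of all 19159 IDs and a median of 0.01. With limma's test and Benjamini-Hochberg adjustment over all IDs, 20 of the 150 IDs were lower at an adjusted p under 0.05 and 0 were higher. Of all IDs 0.151% were called lower, 29 in number, and 0.125% higher. An unadjusted p under 0.05 was met by 123 of the 150 and by 1350 of all 19159 IDs. Without any test, 31 of the 150 IDs had all 9 exposed libraries below all 6 other libraries, against 0.454% of the table.

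The number called at 1 h depended on single libraries. Leaving out control replicate 1, 2 or 3 gave 12, 6 or 9 calls, and leaving out replicate 1 or 2 of propranolol 1 mg/L gave 30 or 7. It was 9 without isoprenaline replicate 3, 13, 11 and 11 without mixture replicates 1, 2 and 3, and 8 without propranolol 4 mg/L replicate 3. In these refits 0.0418% to 0.219% of all IDs were called lower. edgeR's quasi-likelihood test on the recovered reads called 32 of the 150 (0.256% of all IDs lower). With 1 surrogate variable limma called 43 (0.485%).

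Taken singly against the control at 1 h, the exposures gave 0 calls among the 150 IDs with limma and 0 with edgeR, while limma called 0% of all IDs lower in each and 0.0261%, 0.0104% and 0.0209% higher with isoprenaline, the mixture and propranolol 4 mg/L. The estimates were below 0 for 144 of the 150 IDs with isoprenaline, 149 with the mixture and 148 with propranolol 4 mg/L. Their medians were -0.65, -0.82 and -0.69 on the log2 scale, with 33, 53 and 41 IDs at an unadjusted limma p under 0.05 (36, 63 and 32 with edgeR). Of all 19159 IDs, 469, 652 and 435 met that threshold with limma and 692, 735 and 628 with edgeR. The median SE of a log2 difference between groups was 0.479 for the 150 IDs and 0.274 for all IDs. Single libraries moved these values. Isoprenaline had a median of -0.35 with 13 unadjusted IDs without its replicate 3, and 16 and 20 unadjusted IDs without control replicates 2 and 3. The mixture had 28 and 32 unadjusted IDs without those control replicates, and 34 and 31 without its own replicates 2 and 3. Propranolol 4 mg/L had a median of -0.41 with 14 unadjusted IDs without its replicate 3, and 19 unadjusted IDs without control replicate 2. In these refits 275 to 675 of all 19159 IDs had an unadjusted p under 0.05. When only the mixture and control were fitted, 8 of the 150 IDs were called lower, with 0.115% of all IDs lower and 0.407% higher in that fit. These 3 comparisons share the control libraries, and the doses of isoprenaline and propranolol differ, so the values stand side by side only.

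**Figure D3:**
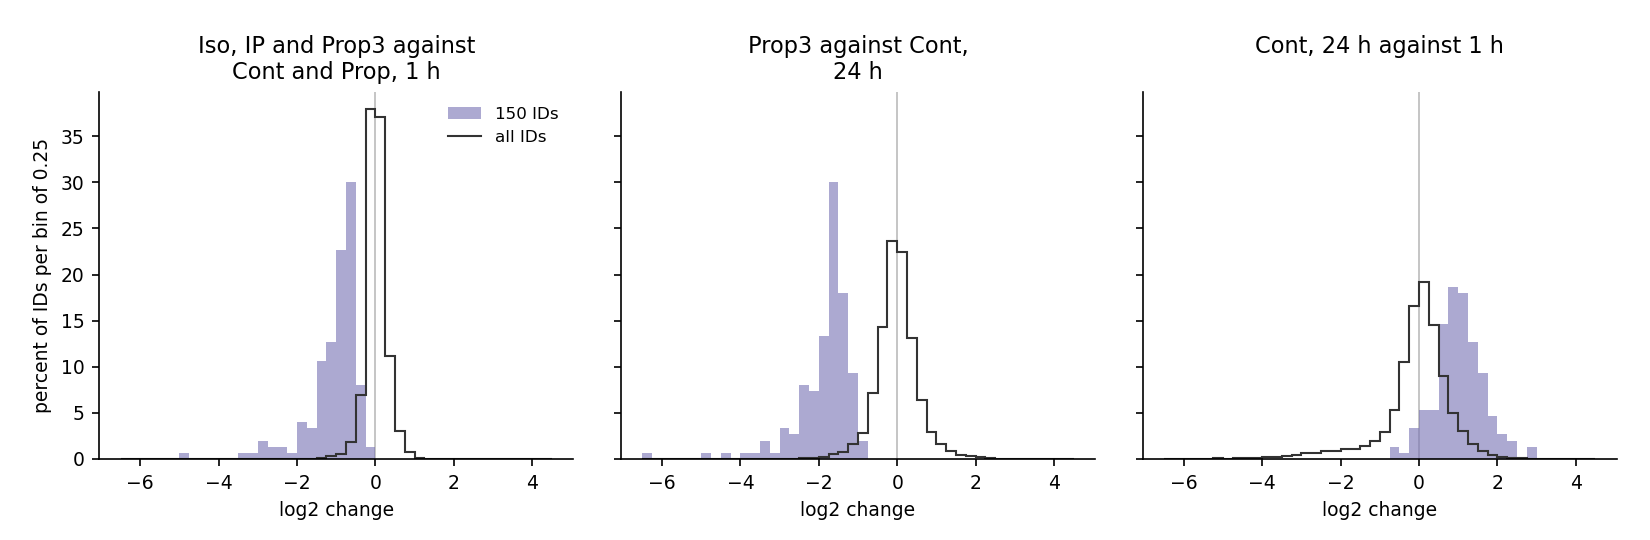
Distribution of log2 changes for the 150 IDs (filled) and for all IDs (line), as percent of IDs in bins of 0.25, in 3 comparisons of libraries not used to choose the IDs. The 150 IDs have medians of -0.85, -1.69 and 1.01, against -0.01 to 0.05 for all IDs.

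At 24 h, propranolol 4 mg/L was the one exposure of the 3 that was sampled. Of the 150 IDs, 46 were lower than in the control by limma's test (adjusted p under 0.05) and 0 were higher, while 0.658% of all IDs were called lower and 0.214% higher. All 150 estimates were below 0, with a median of -1.69 against -0.01 for all IDs. An unadjusted p under 0.05 was met by 148 of the 150 and by 2935 of all 19159 IDs. In 146 of the 150 IDs every propranolol 4 mg/L library lay below every control library, against 11.4% of the table. The called count was 38 with edgeR (0.512% of all IDs lower) and 103 with 1 surrogate variable (2.95%). It was 6 when only the compared groups were fitted (0.0313%), and those 6 were the only calls in the whole table. Leaving out control replicate 1, 2 or 3 gave 3, 25 or 10 calls. Leaving out propranolol 4 mg/L replicate 1 or 2 gave 1 or 12. In these refits 0.0104% to 0.491% of all IDs were called lower. The calls at 24 h and at 1 h had 11 IDs in common, which were 55.0% of the 20 called at 1 h and 23.9% of the 46 called at 24 h.

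The median change was larger for IDs ranked earlier at 6 h. Of the 50 IDs ranked first, 15 were called lower at 1 h and 21 at 24 h. Of the 50 ranked next, 5 and 12 were called, and of the last 50, 0 and 13. The median log2 changes in these blocks of ranks were -1.41, -0.89 and -0.60 at 1 h and -2.25, -1.66 and -1.47 at 24 h. The ranks come from other libraries than the changes.

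**Figure D4:**
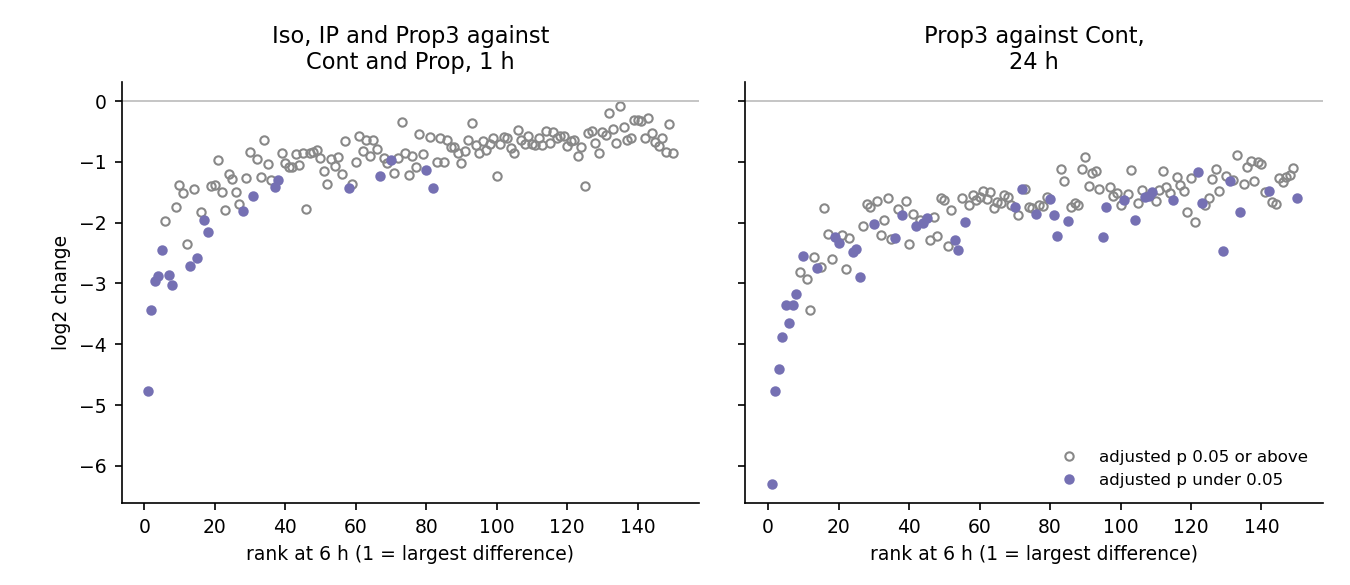
Log2 change of each of the 150 IDs against its rank at 6 h, for the 3 exposures against control and propranolol 1 mg/L at 1 h (left) and for propranolol 4 mg/L against control at 24 h (right). Filled points passed limma's test; all points lie below 0, and the 8 IDs ranked first span -4.77 to -1.98 at 1 h and -6.30 to -3.17 at 24 h.

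Between the 2 propranolol doses at 24 h, 1 of the 150 IDs was lower at 4 mg/L by limma's test, and 0.00522% of all IDs were called lower and 0.0209% higher. The estimates were below 0 for all 150 IDs, with a median of -1.15. This comparison turned on replicate 2 of propranolol 1 mg/L. Without it 37 of the 150 IDs were called lower, of 53 in the whole table, and the median was -1.68. Every propranolol 4 mg/L library lay below every control and propranolol 1 mg/L library in 40 of the 150 IDs (2.33% of the table), and in 145 without that replicate (7.35% of the table). Without replicate 3 of propranolol 4 mg/L the count was 84 (7.1% of the table). A count of this kind cannot fall when a library is left out. edgeR called 8 with all libraries (0.0418% of all IDs lower). limma called 0 without replicate 1 or 3 of propranolol 1 mg/L or replicate 1 or 2 of propranolol 4 mg/L. It called 2 without replicate 3 of propranolol 4 mg/L (0.0104% of all IDs lower) and 10 with 1 surrogate variable (0.0731%).

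At 1 h the doses gave 0 calls among the 150 IDs with limma and 2 with edgeR. Of all IDs limma called 0% lower and 0.0157% higher, and edgeR 0.0104% in each direction. An unadjusted limma p under 0.05 was met by 84 of the 150 and by 506 of all 19159 IDs. All 150 estimates were below 0 and their median was -1.01. Without replicate 2 of propranolol 1 mg/L, 138 were below 0, the median was -0.63 and 39 had an unadjusted p under 0.05. Without replicate 3 of propranolol 4 mg/L 38 did. In these refits 325 and 267 of all 19159 IDs did. limma called 2 of the 150 IDs with a pseudocount of 0.25 (0.0104% of all IDs lower) and 1 without replicate 1 of propranolol 4 mg/L (0.00522%).

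Propranolol at 1 mg/L gave 0 calls among the 150 IDs against the control at 1, 3 or 24 h with limma and 0 with edgeR, and 0% of all IDs were called in either direction by limma. Unadjusted p under 0.05 was met by 3, 0 and 2 of the 150 with limma and 11, 0 and 0 with edgeR. Of all 19159 IDs, 54, 1065 and 522 met it with limma and 127, 686 and 535 with edgeR. The values that follow are for the 150 IDs. The median log2 difference was 0.36 at 1 h, -0.05 at 3 h and -0.55 at 24 h, and at each hour its sign depended on single libraries. At 1 h it was -0.01, with 76 of the 150 estimates below 0, without replicate 2 of propranolol 1 mg/L, 0.70 without its replicate 1 and 0.13 without control replicate 1. At 3 h it ran from -0.28 to 0.11 with a library left out. At 24 h it was 0.01 without replicate 2 of propranolol 1 mg/L and -0.90 without its replicate 1. At 24 h the group means stood in the order 4, 1 and 0 mg/L, lowest first, in 132 of the 150 IDs (5606 of all 19159), and in 72 without that replicate (4265 of all). At 1 h the same order held in 13 of the 150 IDs (2528 of all 19159). In 136 of them (2966 of all 19159) the order at 1 h was 4, 0 and 1 mg/L. Replicate 2 of propranolol 1 mg/L at 1 h had the highest median level of its hour, 21.8 CPM against 6.48 and 11 CPM in replicates 1 and 3. Without it these orders held in 62 and 71 of the 150 IDs (2685 and 4020 of all).

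Levels in unexposed animals were also compared between hours. In the control, 17 of the 150 IDs were higher at 24 h than at 1 h by limma's test and 0 were lower, while 7.39% of all IDs were called higher and 4.87% lower. The median log2 change of the 150 IDs was 1.01, against 0.05 for all IDs, and 142 of them had an estimate above 0. In 100 of the 150 IDs every control library at 24 h lay above every control library at 1 h, as in 22.7% of the table. These 17 are 11.3% of the 150. With edgeR 8 were called, which is 5.33% of the 150 against 4.78% of all IDs, and with 1 surrogate variable 16, which is 10.7% against 9.38%. When only the compared groups were fitted, 49 were called, 32.7% of the 150 against 8.43% of all IDs. The called count was 0 without control replicate 1 at 1 h (1.3% of all IDs higher). It was 3 and 2 without control replicates 1 and 3 at 24 h. Those are 2% and 1.33% of the 150, against 2.44% and 2.96% of all IDs. Without control replicates 2 and 3 at 1 h it was 16 and 15 (10.7% and 10% against 4.44% and 4.12%). Without control replicate 2 at 24 h it was 14 (9.33% against 6.89%). The replicate block gave 12, 8% against 8.06%. The share called of the 150 is thus near or below that of the table in some fits and above it in others. The control libraries at 24 h also serve the comparison with propranolol 4 mg/L, so the counts of 17 and 46 are not independent.

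Under exposure the same course gave few calls. With propranolol 4 mg/L, 0 of the 150 IDs differed between 24 and 1 h with limma (1 unadjusted) and 0 with edgeR (5 unadjusted). The median change was -0.01. Of all 19159 IDs 0% were called, and 1107 with limma and 851 with edgeR had an unadjusted p under 0.05. With propranolol 1 mg/L, limma and edgeR called 0 of the 150 (9 and 5 unadjusted), while 0.887% of all IDs were called higher and 1.35% lower. Of all 19159 IDs, 3217 and 3334 had an unadjusted p under 0.05, a larger share than among the 150. The median change of the 150 IDs with propranolol 1 mg/L was 0.09. It was 0.69 without replicate 2 at 24 h, when 1 ID was called (0.465% of all IDs higher). The effect of propranolol 4 mg/L against control was compared between 24 and 1 h in a direct test. Its median difference over the 150 IDs was -1.04 and 149 estimates were below 0. Of the 150, 0 passed with limma (24 unadjusted) or edgeR (13 unadjusted), while 0.00522% of all IDs were called lower by limma. Of all 19159 IDs, 679 and 880 had an unadjusted p under 0.05 with limma and edgeR. A larger effect at 24 h than at 1 h is therefore not shown for any of the 150 IDs.

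At 3 h, when control and propranolol 1 mg/L were sampled, the median level of the 150 IDs was 9.88 to 16.9 CPM in the propranolol 1 mg/L libraries and 11.2 to 16.4 CPM in the control libraries. At 1 h those groups had 6.48 to 21.8 and 5.45 to 11.5 CPM. The mean of both groups at 3 h against 1 h gave 0 calls with limma (15 unadjusted) and 0 with edgeR (7 unadjusted). The median change was 0.28 (0.13 to 0.47 with a library left out). Of all 19159 IDs 0% were called, and 794 with limma and 804 with edgeR had an unadjusted p under 0.05. The single control library at 0 h had a median of 9.35 CPM, within the range of the control at 1 h. Of the 150 IDs it had 46 in the exposed 6 h range and 45 in the control and propranolol 1 mg/L range. It has no replicate and entered no test.

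The 8 IDs ranked first, those with a difference below -4 at 6 h, are described by their sum. Their summed level at 1 h was 4.51 to 10.5 CPM with isoprenaline, 5.11 to 6.09 CPM with the mixture and 5.06 to 13.7 CPM with propranolol 4 mg/L, against 103.3 to 559.2 CPM with propranolol 1 mg/L and 41.1 to 204.8 CPM in the control. The groups did not overlap. At 24 h it was 6.27 to 11.6 CPM with propranolol 4 mg/L and 304.4 to 497.2 CPM in the control. With propranolol 1 mg/L it was 507.7 and 729.5 CPM in replicates 1 and 3 and 15 CPM in replicate 2. At 3 h it was 131.2 to 340.0 CPM with propranolol 1 mg/L and 108.2 to 343.7 CPM in the control, and in the control library at 0 h it was 20.3 CPM. The 0 h library thus lay below every control and propranolol 1 mg/L library of the later hours other than replicate 2 at 24 h, although its median over all 150 IDs did not. By limma's test 7 of the 8 IDs were lower in the 3 exposures at 1 h and 8 of 8 with propranolol 4 mg/L at 24 h.

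Dapma7bEVm016578t1 was ranked first. At 1 h it had 0.0454, 0.445 and 0.129 CPM in isoprenaline libraries, 0.0682, 0.171 and 0 CPM in mixture libraries and 0.0495, 0.209 and 0.147 CPM in propranolol 4 mg/L libraries. The propranolol 1 mg/L libraries had 27.6, 162.4 and 64.4 CPM and the control libraries 8.80, 55.0 and 4.17 CPM. No exposed library reached any other library, and the exposed ones held 0 to 7 reads of it. The log2(CPM + 1) change of the 3 exposures was -4.77 (SE 0.683, limma adjusted p 0.00142), and it passed in 23 of 23 alternatives (adjusted p up to 0.0122). At 24 h it had 0.945, 0.229 and 0.170 CPM with propranolol 4 mg/L, against 101.7, 84.2 and 154.2 CPM in the control. That change was -6.30 (SE 1.06, limma adjusted p 0.0094, up to 0.0525 over 14 alternatives, of which 13 passed). With propranolol 1 mg/L at 24 h it had 163.3, 1.98 and 225.6 CPM, with replicate 2 nearer to the 4 mg/L libraries than to replicates 1 and 3 of its own group. The control library at 0 h had 0.10 CPM, and the 3 h libraries 34.5, 72.7 and 91.5 CPM with propranolol 1 mg/L and 26.3, 39.0 and 73.2 CPM in the control.

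Dapma7bEVm012688t1 had the highest mean CPM of the 150 IDs, 6924 CPM over all libraries, and ranked 12. CPM is not scaled by transcript length, so it orders libraries for an ID rather than IDs. At 1 h it had 3265, 1212 and 815.7 CPM with isoprenaline, 1541, 1249 and 1165 CPM with the mixture and 4151, 1522 and 675.4 CPM with propranolol 4 mg/L. It had 6785, 19816 and 6344 CPM with propranolol 1 mg/L and 4793, 9898 and 4370 CPM in the control. The exposed libraries all lay below the others, and the closest pair, at 4151 and 4370 CPM, nearly met. The ratio of the means was 0.20, and the log2 change of -2.35 (SE 0.561) missed the threshold (limma adjusted p 0.0948, 0.0393 to 0.389 over 23 alternatives, of which 2 passed). At 24 h it had 794.2, 999.6 and 3223 CPM with propranolol 4 mg/L, 24930, 1048 and 13246 CPM with propranolol 1 mg/L and 19915, 9417 and 17171 CPM in the control. The ratio of propranolol 4 mg/L to control was 0.108 and the log2 change -3.43 (SE 0.870, limma adjusted p 0.058, 0.0277 to 0.261 over 14 alternatives, of which 3 passed). In the control at 0 h it had 3537 CPM.

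The other IDs named are those with the largest increase in the control between 1 and 24 h among the calls that met the naming rule. That rule required a limma call and no overlap between these hours, so both were set by the choice of the IDs. Dapma7bEVm026041t1, ranked 6, had 11.1, 8.54 and 16.6 CPM in the control at 24 h, against 0.385, 5.32 and 0.347 CPM at 1 h. The groups did not overlap, and the log2 change was 2.47 (SE 0.795, limma adjusted p 0.0445, edgeR 0.131). With propranolol 4 mg/L at 24 h it was at 0 in replicates 1 and 3 and held 1 read in replicate 2. That was lower than the control with limma (log2 change -3.65, SE 0.795, adjusted p 0.0303) and edgeR (adjusted p 0.0111), and limma's call held in 1 of 6 refits that each dropped a library. Its change in the 3 exposures at 1 h was -1.98 with limma (adjusted p 0.156, SE 0.513), and edgeR called it (adjusted p 0.000762). At 1 h it held 0 to 4 reads in each of the 9 libraries of the 3 exposures, against 46, 341 and 88 reads with propranolol 1 mg/L and 7, 94 and 6 reads in the control.

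Dapma7bEVm012709t1, ranked 9, had 91.6, 69.5 and 122.0 CPM in the control at 24 h, against 11.4, 40.1 and 12.7 CPM at 1 h. The log2 change was 2.28 (SE 0.744, limma adjusted p 0.048, edgeR 0.0714), and it held in 1 of 6 refits that each dropped a library, as did that of Dapma7bEVm026041t1. At 24 h it had 15.5, 8.95 and 13.2 CPM with propranolol 4 mg/L and 123.4, 11.2 and 171.1 CPM with propranolol 1 mg/L. Every propranolol 4 mg/L library lay below every control library, but the log2 change of -2.81 missed the threshold (SE 0.744, limma adjusted p 0.0686). Unlike the first-ranked ID it stayed well above the floor in the exposed libraries at 1 h, with 8.12, 20.2 and 6.19 CPM with isoprenaline, 7.51, 7.36 and 6.63 CPM with the mixture and 5.60, 17.7 and 5.57 CPM with propranolol 4 mg/L. At that hour it had 24.9, 126.8 and 43.9 CPM with propranolol 1 mg/L, and isoprenaline replicate 2 and propranolol 4 mg/L replicate 2 lay above control replicates 1 and 3. Its log2 change in the 3 exposures at 1 h was -1.75 (SE 0.48, limma adjusted p 0.197).

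**Figure D5:**
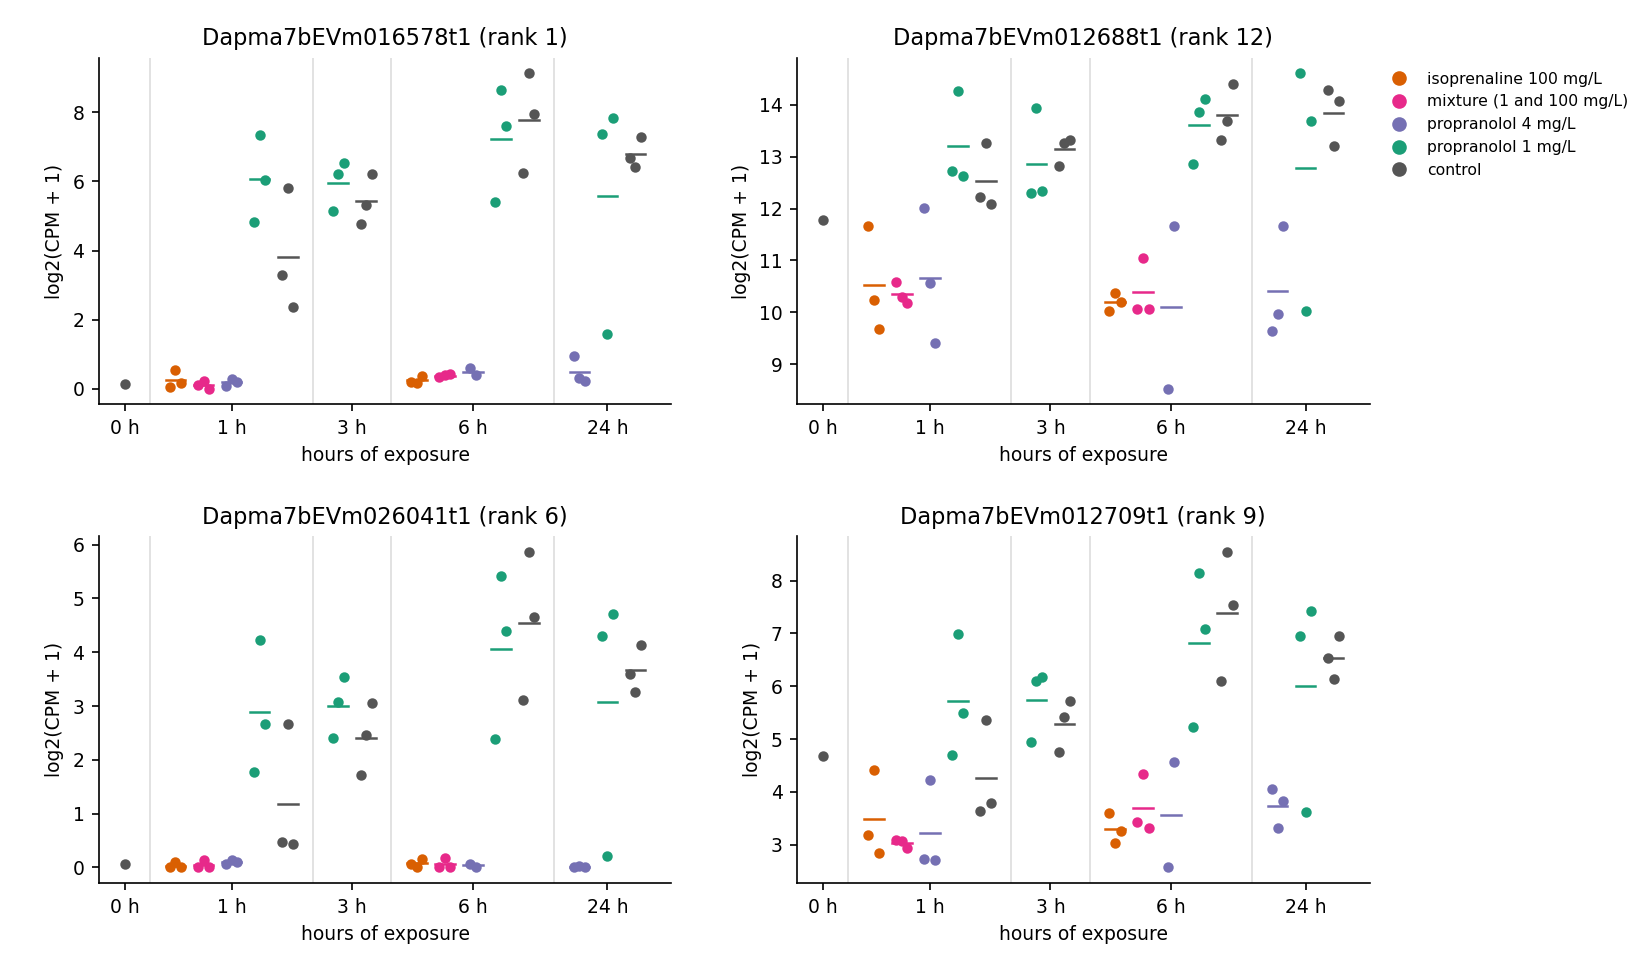
Log2(CPM + 1) of the 4 IDs named, in all 45 libraries by hour and exposure; each point is a library, each bar the mean of a group, and within an hour the order is isoprenaline, mixture, propranolol 4 mg/L, propranolol 1 mg/L, control. The first-ranked ID is at or below 0.945 CPM in every isoprenaline, mixture and propranolol 4 mg/L library.

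The 150 IDs also varied widely among libraries of the same group. Over the 30 libraries with replicates at hours other than 6 h, the median SD within groups was 0.611 on the log2 scale, against 0.339 for all IDs, and 148 of the 150 exceeded that value. Much of this spread was shared: the first principal component of the deviations from group means held 63.7% of their variance for the 150 IDs. For the other 19009 IDs the first component held 66.1%, and 20 of the 30 libraries had the same sign on both. In a further fit, 1 surrogate variable estimated from all IDs was added. Of the 150 IDs, 43 were then called at 1 h and 103 with propranolol 4 mg/L at 24 h. Without it the counts were 20 and 46. The share of all IDs called lower rose as well, from 0.151% to 0.485% at 1 h and from 0.658% to 2.95% at 24 h. Whether the variable takes up the shared deviation of the 150 IDs was not tested. The part of this spread in the comparisons was not tested further.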

How the data were processed

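Messenger RNA was sequenced from 45 libraries in 16 groups of exposure and hour, assigned from the titles. The deposited values are CPM, made by the authors, and each library sums to 1000000. Per the submitters' processing notes, HTSeq and edgeR were used besides Bowtie2 2.1.0 and Trim Galore 0.3.2; a genome build is not given in the sources used here. Whole reads were recovered for 100% of 862155 values (tolerance 0.01 read), and floors of 3 reads cover counting error only. The 43 pairs of libraries within groups had chi-square values of at least 17.2 per degree of freedom, above sampling noise.

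All 19159 IDs were tested on the log2(CPM + 1) scale of the deposited values with limma 3.58.1 in R 4.3.3, using a trend and robust moderation. It used the 31 libraries not at 6 h, in 11 group means with 20 residual degrees of freedom, and p-values were adjusted by Benjamini-Hochberg over all IDs, separately in the 15 comparisons; a call is an adjusted p under 0.05. Fold changes on this scale understate the change of low IDs. Alternatives were a pseudocount of 0.25, a mean of at least 5 CPM, all 45 libraries, only the compared groups, the replicate number as a block, median log-ratio scaling, edgeR 4.0.16 on recovered reads and each library left out. One surrogate variable (sva 3.50.0) and the counts without overlap were added after seeing the data. The limma and edgeR steps were run on simulated reads for propranolol 4 mg/L against control at 24 h. Those reads were drawn independently for each ID, so deviations shared among IDs of a library were not covered.

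The members, groups and tests were chosen with earlier results of these data known. Without gene names, the naming rule allowed the ID ranked first, the one with the highest mean CPM, and the 2 with the largest called increase in the control between 1 and 24 h (no overlap, mean of at least 5 CPM). The split into ranks and the 8 IDs below -4 were chosen after the values were seen. Deviations of same-numbered libraries correlated above 0.1 in every pair in 2 of 12 comparisons. Both set the lower propranolol dose against the control, at 1 and 3 h. The block gave 0 calls among the 150 IDs there, as without it. Since 0 of all IDs were called there without the block, these counts cannot show whether a pairing matters.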

Additional observations from a re-analysis of the deposited data

How the results depend on the processing

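Of the 150 IDs chosen at 6 h, 122 stayed among the first 150 with a pseudocount of 0.25 and 141 with median log-ratio scaling. When a library was left out, 119 to 149 stayed. With a mean of at least 5 CPM required, no more than the 124 IDs that reached it could stay. The median log2 change of the 150 IDs kept its sign under every alternative in 10 of the 15 comparisons. It changed sign in 5 with 0 calls: propranolol 1 mg/L against control at 1 h (-0.01 to 0.70), 3 h (-0.28 to 0.12) and 24 h (-0.90 to 0.01), and 24 against 1 h with propranolol 1 mg/L (-0.23 to 0.69) and 4 mg/L (-0.30 to 0.11).

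Calls among the 150 IDs moved more. For the 3 exposures at 1 h there were 20 (6 to 30 with a library left out, 32 with edgeR, 43 with 1 surrogate variable). Over these settings 0.0418% to 0.485% of all IDs were called lower. For propranolol 4 mg/L against control at 24 h there were 46 (1 to 67 with a library left out, 6 with only the compared groups, 29 with the replicate block, 103 with 1 surrogate variable). Here the share of all IDs called lower ran from 0.0104% to 2.95%. Against propranolol 1 mg/L at 24 h there was 1 (0 to 37 with a library left out, 0 with only the compared groups, 0 with the replicate block, 8 with edgeR, 10 with 1 surrogate variable). In these fits 0% to 0.277% of all IDs were called lower. For the control at 24 against 1 h there were 17 (0 to 16 with a library left out, 28 with all 45 libraries, 49 with only the compared groups, 8 with edgeR). The 28 are 18.7% of the 150, against 7.59% of all IDs called higher. Over these settings that share of all IDs ran from 1.3% to 8.43%. Counts of 0 moved to 8 (only the compared groups) and 1 (1 surrogate variable) for the mixture against control at 1 h. In those fits 0.115% and 0.00522% of all IDs were called lower. Between the doses at 1 h they moved to 2 with a pseudocount of 0.25, 1 with all 45 libraries, 2 with edgeR, 1 with 1 surrogate variable and 0 to 1 with a library left out. Between the doses 0% to 0.0104% of all IDs were called lower in these fits. For propranolol 1 mg/L at 24 against 1 h they moved to 4 with 1 surrogate variable and 0 to 1 with a library left out. The 4 were higher at 24 h and are 2.67% of the 150, against 7.25% of all IDs. The 1, without replicate 2 at 24 h, is 0.667% against 0.465%. The count of IDs with propranolol 4 mg/L below both other groups at 24 h was 40 to 145 with a library left out. Counts without overlap can only stay or grow when a library is left out, so their ranges say nothing about stability. The other causes were not tested.

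Whether replicate numbers pair libraries across groups was not settled. In 0 of 12 comparisons did every library correlate best with its own number, but pairs among the 3 exposures and pairs at 6 h were not examined. At 1 h the median log2 levels of replicates 1, 2 and 3 were 2.78, 3.05 and 1.98 with isoprenaline. They were 2.73, 3.02 and 1.93 with propranolol 4 mg/L, and 2.56, 2.20 and 2.23 with the mixture. The replicate block moved no count of calls by more than 1.5 times other than the 2 given above. Depth limits the lowest IDs, where 1 read decides the value.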
